A study of Mus musculus with 4 samples.

Results

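The *Tyro3*, *Axl* and *Mertk* receptors (TAM receptors), their ligands *Gas6* and *Pros1*, and 3 further genes of apoptotic-cell uptake, *Mfge8*, *Timd4* and *Anxa1*, were examined in polymorphonuclear myeloid-derived suppressor cells (PMN-MDSCs), the neutrophil-like cells that restrain T cells in newborns. These 8 genes, out of 28585 genes listed, were chosen by name with earlier results of these data known, and all 8 were found. Bulk RNA sequencing gave 4 libraries of PMN-MDSCs taken from the spleen on postnatal day 7, 2 labelled *Dhps* cko and 2 labelled *Dhps* flox. The comparison asks how these genes differ when *Dhps* is deleted in myeloid cells. *Dhps* encodes deoxyhypusine synthase, the enzyme that uses spermidine to convert a lysine of the translation factor eIF5A into hypusine.

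Both groups were on a C57BL/6J background and carried floxed *Dhps* (*Dhps* fl/fl). The *Dhps* cko pups also carried *Lysm*-Cre, a Cre recombinase driven from the lysozyme 2 locus, which is active in neutrophils, monocytes and macrophages. None of the 4 libraries came from pups with *Lysm*-Cre and an unfloxed *Dhps*, so effects of the Cre allele and of the deletion cannot be told apart. The study defined PMN-MDSCs as CD11b+Ly6Clo/-Ly6G+ cells. It used pups of both sexes, but the labels give neither the sex nor the number of pups behind a library. The study describes the pups of the genotypes as littermates, but the labels do not pair the libraries. Nothing in the labels says that replicates came from separate litters or sorts, so the p-values measure the spread between these libraries, which may be technical in part.

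TAM receptors are receptor tyrosine kinases that drive the uptake of dying cells and dampen innate immune signalling. They do not bind the dying cell directly. GAS6 and protein S (the product of *Pros1*), whose vitamin K-dependent carboxylated ends hold phosphatidylserine on the dying cell, bridge it to the receptor. GAS6 activates all TAM receptors, whereas protein S acts on TYRO3 and MERTK. MFG-E8 forms a similar bridge to αv integrins, TIM-4 (the product of *Timd4*) binds phosphatidylserine itself on resident macrophages, and annexin A1 is an abundant neutrophil protein that signals through formyl peptide receptors and promotes the clearance of neutrophils.

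Gene levels are given in FPKM, sequenced fragments corrected for gene length and library depth, a scale on which genes can be compared. The FPKM of a library summed to between 304281 and 319286, and between 10611 and 10729 genes reached 1 FPKM. The spacing of low values gave rough depths of 29600000 to 32200000 mapped fragments, but too few values fell on whole steps to recover the fragments behind a gene. The targeted gene *Dhps* was at 2.38 FPKM in replicate 1 and 2.59 FPKM in replicate 2 of *Dhps* cko, and at 3.57 and 3.11 FPKM in those of *Dhps* flox. Values of replicates 1 and 2 are given in this order throughout. *Dhps* was lower in both *Dhps* cko libraries, at 74.4% of the *Dhps* flox mean, and it remained detectable in each of them. On the log2(FPKM + 0.1) scale *Dhps* differed by -0.41, with a standard error (SE) of 0.13 (limma, Benjamini-Hochberg adjusted p = 0.63), and 5.5% of its exon bases are shared with the antisense gene *Wdr83*. The neutrophil gene *Ngp* was at 26339 to 27902 FPKM in the 4 libraries, and *Ly6g*, which encodes the sorting marker, was at 222 and 242 FPKM in *Dhps* cko and at 195 and 185 FPKM in *Dhps* flox.

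In these PMN-MDSCs *Axl* was the prevailing TAM receptor transcript, *Mertk* was lower, and *Tyro3* was close to 0. Among all 8 genes, ordered by mean level, *Anxa1* came first at 1497 FPKM, followed by *Axl* at 19.57, *Mertk* at 4.33, *Gas6* at 2.87, *Timd4* at 2.56, *Pros1* at 0.60, *Mfge8* at 0.448 and *Tyro3* at 0.03 FPKM. The levels of neighbours in this order did not overlap across the 4 libraries, except those of *Gas6* and *Timd4*. *Anxa1* lay at the 99.9th percentile of all genes listed and *Axl* between the 92.3rd and 93.3rd, whereas *Pros1* and *Mfge8* lay between the 52.6th and 58.5th. In such bulk libraries, fewer cells of a type and less RNA per cell cannot be told apart.

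**Figure D1:**
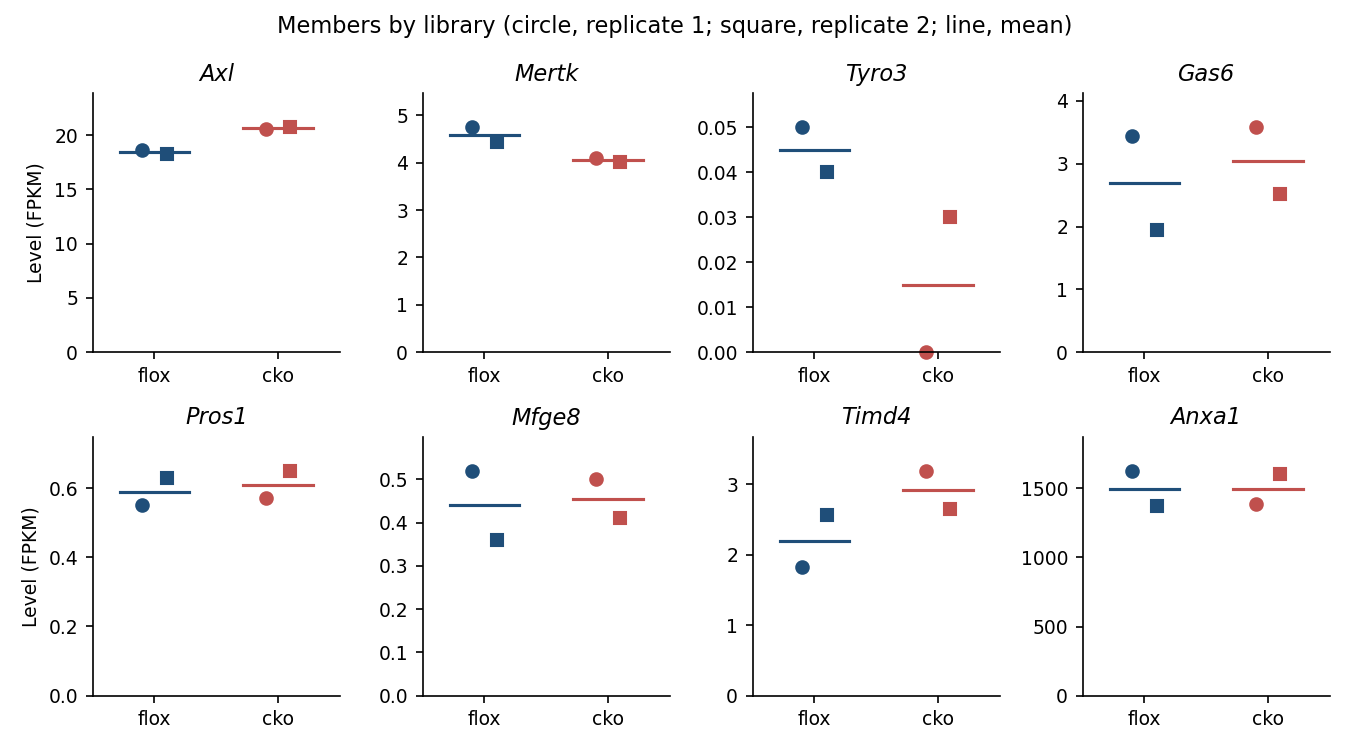
Levels of the 8 genes in FPKM (vertical axes, each from 0 and on its own scale) in the 2 *Dhps* flox libraries (blue) and the 2 *Dhps* cko libraries (red), with circles for replicate 1, squares for replicate 2 and lines for the mean. *Axl* and *Timd4* were higher and *Mertk* and *Tyro3* lower in both *Dhps* cko libraries, whereas the libraries of *Gas6*, *Pros1*, *Mfge8* and *Anxa1* overlapped.

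*Axl* (ENSMUSG00000002602; chromosome 7 of GRCm38 in GENCODE M21, 25757273 to 25788705, minus strand) is the TAM receptor that is induced by interferon and inflammatory signals in macrophages and dendritic cells. It was at 20.61 and 20.74 FPKM in *Dhps* cko and at 18.66 and 18.28 FPKM in *Dhps* flox. Both *Dhps* cko libraries were higher, and the replicates of each genotype lay close together. The means were 20.67 ± 0.092 FPKM (SD, n = 2) in *Dhps* cko and 18.47 ± 0.27 FPKM (SD, n = 2) in *Dhps* flox, so that the *Dhps* cko mean was 112% of the *Dhps* flox mean. The log2 fold change was 0.16 with an SE of 0.06 and a 95% interval of 0.01 to 0.31. With limma, the unadjusted p was 0.041 and the adjusted p was 0.69 (Benjamini-Hochberg), so *Axl* did not pass the test over all genes. The unadjusted p from limma ran from 0.024 to 0.17 under the 9 other settings that kept all libraries and was under 0.05 in 3 of them. It was above 0.05 with each of the 3 other scalings, at 0.055 to 0.1.

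*Mertk* (ENSMUSG00000014361; chromosome 2, 128698956 to 128802894, plus strand) encodes the TAM receptor on which macrophages chiefly rely for uptake of apoptotic cells in many tissues. It was at 4.11 and 4.02 FPKM in *Dhps* cko and at 4.75 and 4.44 FPKM in *Dhps* flox. Here both *Dhps* cko libraries were lower, the direction opposite to that of *Axl*. The means were 4.065 ± 0.064 FPKM (SD, n = 2) and 4.595 ± 0.22 FPKM (SD, n = 2), and the *Dhps* cko mean was 88.5% of the *Dhps* flox mean. The log2 fold change was -0.17 with an SE of 0.10 and a 95% interval of -0.42 to 0.08 (limma adjusted p = 0.78). *Mertk* was among the genes that the study chose to show from these same libraries, so its direction is not independent evidence.

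The stretches of 250 bases before the RefSeq start sites of *Axl* and *Mertk* are shown because these receptors make up nearly all of the TAM receptor signal and lay on opposite sides of the *Dhps* flox level. Both are read from RefSeq on GRCm38.p6, 5′ to 3′ on the strand of the gene, at chr7:25788734-25788983 (minus strand) for *Axl* and at chr2:128698665-128698914 (plus strand) for *Mertk*. Neither overlaps an exon of GENCODE M21. Capitals mark matches, on either strand, to the GC box GGGCGG or to the ETS core AGGAAG, which do not overlap each other in these windows.
Axl: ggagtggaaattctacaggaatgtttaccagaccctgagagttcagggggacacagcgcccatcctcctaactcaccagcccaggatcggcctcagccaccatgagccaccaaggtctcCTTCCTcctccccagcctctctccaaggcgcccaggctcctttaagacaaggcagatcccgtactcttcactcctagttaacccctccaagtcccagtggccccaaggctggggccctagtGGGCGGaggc
Mertk: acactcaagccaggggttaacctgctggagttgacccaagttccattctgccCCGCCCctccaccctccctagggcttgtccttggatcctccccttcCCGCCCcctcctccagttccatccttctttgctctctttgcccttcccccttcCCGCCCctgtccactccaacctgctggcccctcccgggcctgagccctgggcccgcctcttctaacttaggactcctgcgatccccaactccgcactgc
*Axl* holds 1 GC box, which begins 10 bases before the RefSeq start site, and 1 ETS core. For both genes the GENCODE M21 gene bounds given above begin further downstream, so positions hold for the RefSeq start only. *Mertk* holds 3 GC boxes and no ETS core. Of 32851 promoter windows of the same length, 32.7% hold a GC box and 29.5% an ETS core. The TATA box TATAAA, the CCAAT box CCAAT, the AP-1 site TGAGTCA, the C/EBP site TTGCNNAA, the interferon-response-like motif (a pair of GAAA runs with 2 bases of any kind between them) and the E-box CACGTG were also searched and are not in these windows. The windows hold 5 CpG (*Axl*) and 7 CpG (*Mertk*), beside a median of 6 over all windows. Such matches describe the letters and say nothing about binding in these cells.

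*Tyro3* (ENSMUSG00000027298; chromosome 2, 119797733 to 119818104, plus strand), the TAM receptor best known from the nervous system, was listed at 0 and 0.03 FPKM in *Dhps* cko and at 0.05 and 0.04 FPKM in *Dhps* flox. *Tyro3* was below the filter of a mean of 0.1 FPKM and was therefore the 1 gene of the 8 left out of the comparison. With no filter its log2 fold change was -0.35 with an SE of 0.21 (limma adjusted p = 0.80), so a difference in *Tyro3* was not detectable at these levels.

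*Gas6* (ENSMUSG00000031451; chromosome 8, 13465374 to 13494490, minus strand), the ligand shared by all TAM receptors, was the more abundant ligand transcript. It was at 3.58 and 2.51 FPKM in *Dhps* cko and at 3.44 and 1.95 FPKM in *Dhps* flox. Within each genotype replicate 1 was higher than replicate 2, by 0.50 in *Dhps* cko and 0.79 in *Dhps* flox on the log2 scale, and the genotypes overlapped. The log2 fold change between genotypes was 0.20 with an SE of 0.32 and a 95% interval of -0.61 to 1.01 (limma adjusted p = 0.93), a difference smaller than that between replicates. The antisense gene *Tmem255b* shares 1.3% of the exon bases of *Gas6*.

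*Pros1* (ENSMUSG00000022912; chromosome 16, 62854307 to 62929346, plus strand), which encodes the anticoagulant cofactor protein S, was at 0.57 and 0.65 FPKM in *Dhps* cko and at 0.55 and 0.63 FPKM in *Dhps* flox. The genotypes overlapped, and their means of 0.61 ± 0.057 and 0.59 ± 0.057 FPKM (SD, n = 2 each) were nearly the same. On the log2 scale the genotypes differed by 0.04 with an SE of 0.24 and a 95% interval of -0.56 to 0.65 (limma adjusted p = 0.99).

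*Mfge8* (ENSMUSG00000030605; chromosome 7, 79133768 to 79149060, minus strand) was at 0.50 and 0.41 FPKM in *Dhps* cko and at 0.52 and 0.36 FPKM in *Dhps* flox. Like *Gas6*, it was higher in replicate 1 than in replicate 2 of both genotypes, and the *Dhps* cko values lay inside the *Dhps* flox range. The genotypes differed by 0.05 on the log2 scale, with an SE of 0.30 and a 95% interval of -0.71 to 0.82 (limma adjusted p = 0.99).

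*Timd4* (ENSMUSG00000055546; chromosome 11, 46810800 to 46844332, plus strand) had the largest log2 difference of the 7 genes tested. It was at 3.19 and 2.65 FPKM in *Dhps* cko and at 1.82 and 2.56 FPKM in *Dhps* flox. The genotypes did not overlap, but the gap between the lower *Dhps* cko library and the higher *Dhps* flox library was narrow beside the spread within each genotype. The means were 2.92 ± 0.38 and 2.19 ± 0.52 FPKM (SD, n = 2 each), and the *Dhps* cko mean was 133% of the *Dhps* flox mean. The log2 fold change was 0.41 with an SE of 0.21 and a 95% interval of -0.12 to 0.94 (limma adjusted p = 0.77). Without *Dhps* flox replicate 1 it was 0.18.

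*Anxa1* (ENSMUSG00000024659; chromosome 19, 20373428 to 20390944, minus strand) was by far the most abundant of the 8 genes. It was at 1386 and 1606 FPKM in *Dhps* cko and at 1627 and 1369 FPKM in *Dhps* flox. The genotypes overlapped, with the highest and the lowest level both in *Dhps* flox, and the *Dhps* cko mean was 99.9% of the *Dhps* flox mean. On the log2 scale this was 0.00 with an SE of 0.12 and a 95% interval of -0.31 to 0.31 (limma adjusted p = 1).

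Of the 7 genes tested, 0 had an adjusted p under 0.05, which over all 17948 genes tested was found for 0.00557%, that is for 1 gene, the gene model *Gm20716*, which is named here after its value was seen. An unadjusted p under 0.05 was found for 1 of the 7 (*Axl*), beside 7.0% of all genes tested. The libraries of the genotypes did not overlap for 3 of the 7, beside 36.0% of all genes. They were higher in *Dhps* cko for 2 (*Axl* and *Timd4*), beside 20.0%, and lower for 1 (*Mertk*), beside 16.0%. Across the 7 genes the log2 fold changes had a median of 0.05, beside 0.01 over all genes, and 5 were positive. With 7 genes, these shares are close to those of all genes and are not read as a result about them.

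**Figure D2:**
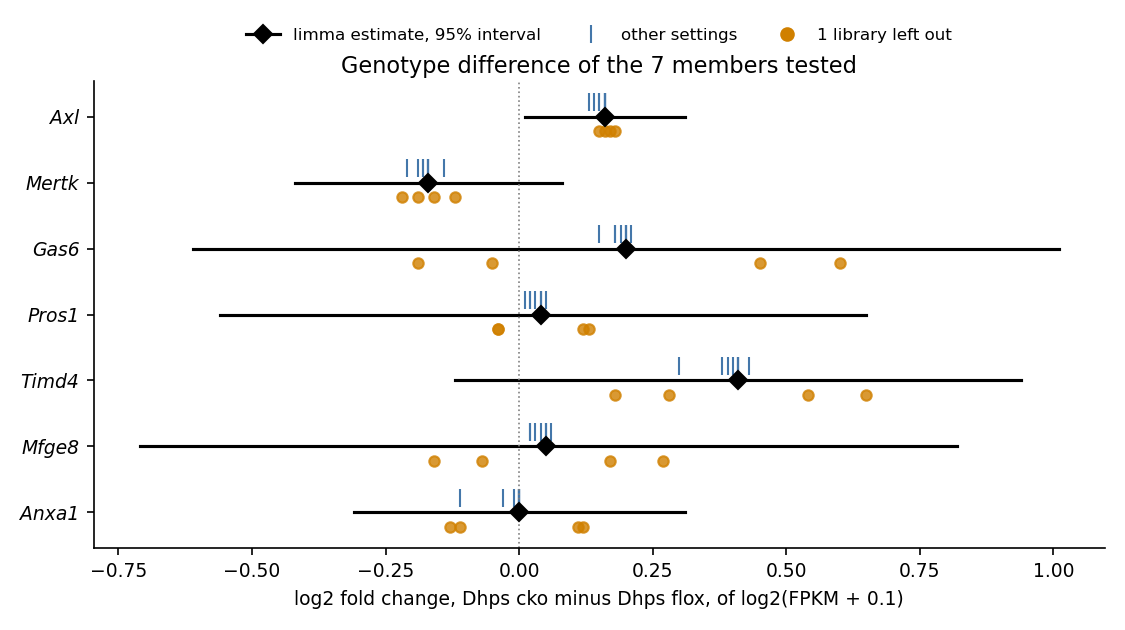
Differences between genotypes for the 7 genes tested, as log2 fold changes of log2(FPKM + 0.1) (horizontal axis, positive where *Dhps* cko is higher), with diamonds and lines for the limma estimate and its 95% interval, blue ticks for other settings and orange points for fits without 1 library. The intervals are not adjusted for the number of genes tested. That of *Axl*, from 0.01 to 0.31, lies above 0 (limma adjusted p = 0.69), whereas the other 6 intervals include 0. The estimates of *Gas6*, *Pros1*, *Mfge8* and *Anxa1* change sign when 1 library is left out.

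*Axl* and *Mertk* were also set against each other within each library. This ratio, which restates the opposite differences of the receptors given above, and the values per macrophage marker that follow were computed after the levels above were seen, so they are given without a test. The ratio of *Axl* to *Mertk* in FPKM was 5.02 and 5.16 in *Dhps* cko and 3.93 and 4.12 in *Dhps* flox. Both *Dhps* cko libraries were higher, with means of 5.09 ± 0.10 and 4.02 ± 0.13 (SD, n = 2 each), a difference of 0.34 on the log2 scale. *Axl* accounted for 83.4% and 83.7% of the summed TAM receptor FPKM in *Dhps* cko and for 79.5% and 80.3% in *Dhps* flox. A ratio within a library does not depend on the scaling of that library, and neither receptor passed the test over all genes.

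The summed level of the TAM receptors was 24.72 and 24.79 FPKM in *Dhps* cko and 23.46 and 22.76 FPKM in *Dhps* flox, a *Dhps* cko mean at 107% of *Dhps* flox. For the ligands *Gas6* and *Pros1* the sums were 4.15 and 3.16 FPKM in *Dhps* cko and 3.99 and 2.58 FPKM in *Dhps* flox. The receptor sums did not overlap between genotypes, whereas the ligand sums did. In each library receptor transcripts outweighed ligand transcripts, by between 5.88 and 8.82 to 1.

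Macrophages are known to express *Axl*, *Mertk*, *Timd4* and *Gas6*, and their markers were detected in these sorted cells. Of the 20 macrophage markers listed, 19 were in the data, none was at 0 in all 4 libraries and 18 passed the filter. Their summed level was 365 and 376 FPKM in *Dhps* cko and 312 and 309 FPKM in *Dhps* flox, 119% by the means. Of the 18, 16 had a positive log2 fold change (median 0.21) and 6 had an unadjusted p under 0.05, each of them higher, beside 52.2% of all genes tested with a positive log2 fold change and 7.0% with an unadjusted p under 0.05. The most abundant was *Hmox1*, at 70.00 and 73.96 FPKM in *Dhps* cko and 61.78 and 64.55 FPKM in *Dhps* flox. The rise was not shared by all markers. Without overlap, 11 of the 18 were higher and 1 was lower in *Dhps* cko, beside 20.0% and 16.0% of all genes tested. The others overlapped, among them *Slc40a1*, at 51.02 and 53.65 FPKM in *Dhps* cko and 52.19 and 50.18 FPKM in *Dhps* flox, and *Spic* (log2 fold change -0.01). The part of these markers in the levels of the 8 genes was not tested.

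Set against the summed macrophage markers, *Axl* was not higher in *Dhps* cko. Per 100 FPKM of these markers it was at 5.65 and 5.51 in *Dhps* cko and at 5.98 and 5.92 in *Dhps* flox, a log2 difference of -0.09 with both *Dhps* cko libraries lower. *Mertk* was at 1.13 and 1.07 in *Dhps* cko and at 1.52 and 1.44 in *Dhps* flox, a log2 difference of -0.43. The position of *Axl* on this scale rested on which markers were summed. Of the 18 macrophage markers tested, 7 had a log2 fold change below that of *Axl* and 11 above it. With *C1qa*, *C1qb*, *C1qc* and *Marco* left out of the sum, a choice made after seeing the data, *Axl* was at 7.49 and 7.38 in *Dhps* cko and at 7.5 and 7.31 in *Dhps* flox, and the genotypes overlapped (log2 difference 0.01). *Mertk* stayed lower in both *Dhps* cko libraries with this shorter sum, at a log2 difference of -0.33. *Timd4* was at 0.875 and 0.704 in *Dhps* cko and at 0.583 and 0.829 in *Dhps* flox, so that the genotypes now overlapped. *Gas6* overlapped on this scale as it did in FPKM, with a log2 difference of -0.04.

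**Figure D3:**
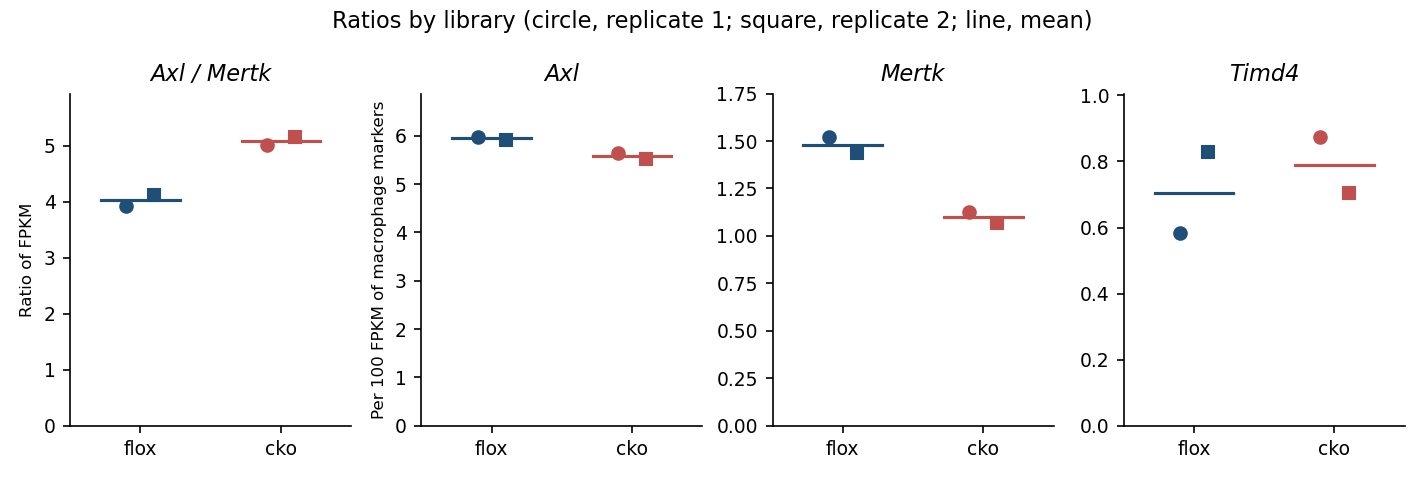
The ratio of *Axl* to *Mertk* in FPKM (left) and the levels of *Axl*, *Mertk* and *Timd4* per 100 FPKM of summed macrophage markers (the other 3 panels) in the 2 *Dhps* flox libraries (blue) and the 2 *Dhps* cko libraries (red), with circles for replicate 1, squares for replicate 2 and lines for the mean. Both *Dhps* cko libraries had the higher ratio, at 5.02 and 5.16, and with all markers summed the lower levels of *Axl* (not kept without *C1qa*, *C1qb*, *C1qc* and *Marco*) and *Mertk*, whereas those of *Timd4* overlapped.

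Markers of lymphocytes and dendritic cells summed to less than those of macrophages, and were also higher in *Dhps* cko. The 8 T cell markers, led by *Trbc2*, summed to 23.2 and 16.6 FPKM in *Dhps* cko and to 12.7 and 8.21 FPKM in *Dhps* flox, with 8 of 8 positive. Of these, 6 were higher in *Dhps* cko without overlap. The genotypes overlapped for *Cd3d* and *Cd3e*, with log2 fold changes of 0.07 and 0.11. The 8 B cell markers, led by *Ighm*, summed to 66.1 and 68.4 FPKM and to 41.9 and 51.5 FPKM, with 8 of 8 positive. The 12 dendritic cell markers, led by *Cd74*, summed to 51.5 and 53.5 FPKM and to 32.2 and 37.1 FPKM, with 9 of the 10 tested positive. Most of this sum was *Cd74*, *H2-Ab1* and *H2-Aa*, which B cells also express. Without these genes, left out after their values were seen, it was 6.48 and 5.93 FPKM in *Dhps* cko and 3.88 and 4.98 FPKM in *Dhps* flox, or 140% by the means. Of the 10 dendritic cell markers tested, 8 were higher in *Dhps* cko without overlap, beside 20.0% of all genes tested. Of the more restricted markers, also singled out after their values were seen, *Flt3* was at 0.19 and 0.2 FPKM in *Dhps* cko against 0.12 and 0.08 FPKM in *Dhps* flox. *Siglech* was at 0.17 and 0.18 FPKM against 0.09 and 0.08 FPKM, and neither of these genes overlapped. *Clec9a* was at 1.04 and 0.93 FPKM against 0.93 and 0.94 FPKM and *Batf3* at 0.23 and 0.15 FPKM against 0.23 and 0.24 FPKM, so that the genotypes overlapped for both. The summed markers in *Dhps* cko were at 190% of the *Dhps* flox mean for T cells, 152% for dendritic cells, 144% for B cells, 111% for monocytes, 110% for stromal and endothelial cells, 106% for erythroid cells, 105% for neutrophils and 101% for platelets. Of the sex-linked genes, the Y-linked *Uty*, *Kdm5d*, *Eif2s3y* and *Ddx3y* were lower in both *Dhps* cko libraries, by log2 fold changes between -1.15 and -1.02, and *Xist* was higher by 0.50. A difference in the share of male pups and the difference in genotype cannot be told apart for the 8 genes, since the libraries of a genotype lie on the same side. The part of the other markers was not tested.

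For the 5 genes of the 8 with a mean of at least 1 FPKM, the genes with the most similar pattern over the 4 libraries were found by the root mean square difference of the centred log2 values, out of 10628 genes. Nearest to *Mertk* were *P2ry12*, a purinergic receptor gene known from microglia, at a difference of 0.0061, and *Ppip5k1* at 0.0062. *Axl* lay nearest to *Fcgr4*, an activating Fc receptor gene of myeloid cells, at 0.0057, and to *Ethe1* at 0.0059. *Fcgr4* was at 58.61 and 59.56 FPKM in *Dhps* cko and at 53.36 and 52.03 FPKM in *Dhps* flox. Nearest to *Timd4* were the gene model *Gm16477* (0.014) and *Itgax* (0.034), which encodes CD11c and was at 3.30 and 2.87 FPKM in *Dhps* cko and at 1.85 and 2.63 FPKM in *Dhps* flox. *Anxa1* was nearest to *Nucb2* (0.0052) and *Ugt8a* (0.0088). *Gas6* had no neighbour as close, with *Akip1* at 0.049 and *Selenow* at 0.052. Over 4 libraries such likeness is a description only.

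Other genes of the pathway were taken from 9 lists with 181 genes, of which 175 were in the data and 158 passed the filter. None of the 158 (0) passed the adjusted threshold, and 18 passed 0.05 before adjustment, 13 higher and 5 lower in *Dhps* cko. These 18 are 11.4% of the genes, beside 7.0% of all genes tested. The gap was not kept in every fit: the shares were 6.96% of the pathway genes and 7.22% of all genes without limma's trend, 3.8% and 4.16% without *Dhps* cko replicate 2, and 6.33% and 7.38% without *Dhps* flox replicate 1. The genotypes did not overlap for 76, or 48.1%, beside 36.0% of all genes, and the median log2 fold change was 0.02. *C1qa*, *C1qb*, *C1qc* and *Trem2* are among the genes also on the macrophage list, *Lck* is also on the T cell list, and *Cd14*, *Klf4*, *Nr4a1* and *Cx3cr1* are on the monocyte list.

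Of the other soluble bridges and opsonins, 10 genes were tested, of which 5 had an unadjusted p under 0.05 and were higher and 1 was lower, beside 7.0% of all genes tested in either direction, the share against which the counts of the other lists are also to be read. *C1qa*, which encodes a chain of complement C1q, an opsonin of apoptotic cells made chiefly by macrophages, was at 25.73 and 28.31 FPKM in *Dhps* cko and at 18.62 and 18.67 FPKM in *Dhps* flox. This was a log2 fold change of 0.53 with an SE of 0.07 (limma adjusted p = 0.38). *C1qb*, a second chain of C1q, was at 27.28 and 32.28 FPKM in *Dhps* cko and at 20.29 and 18.13 FPKM in *Dhps* flox. Both C1q genes were higher in each *Dhps* cko library. *Thbs1*, thrombospondin-1, which links apoptotic cells to CD36 and αv integrins, went the other way and was the most abundant gene of the list. It was at 767 and 782 FPKM in *Dhps* cko and at 954 and 937 FPKM in *Dhps* flox, a log2 fold change of -0.29 with an SE of 0.06 (limma adjusted p = 0.49).

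Of the other apoptotic-cell receptors, 24 genes were tested and the median log2 fold change was 0.02. *Cd14*, which encodes a lipopolysaccharide co-receptor that also binds apoptotic cells, was the 1 gene with an unadjusted p under 0.05. It was at 12.02 and 12.50 FPKM in *Dhps* cko and at 17.62 and 15.27 FPKM in *Dhps* flox, a log2 fold change of -0.42 with an SE of 0.09 (limma adjusted p = 0.51). The most abundant gene, *Itgb2*, the β2 integrin chain of complement receptor 3, differed by 0.00 on the log2 scale (SE 0.07). *Timd2*, a relative of *Timd4*, was listed at 0 in all 4 libraries.

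Among 19 genes of TAM signalling and receptor shedding, 4 with an unadjusted p under 0.05 were higher and 1 was lower. *Timp3*, an inhibitor of the protease ADAM17 that sheds MERTK from the cell surface, was at 1.66 and 1.67 FPKM in *Dhps* cko and at 0.94 and 0.75 FPKM in *Dhps* flox. It was higher in both *Dhps* cko libraries, by a log2 fold change of 0.91 with an SE of 0.19 (limma adjusted p = 0.49). *Adam17* itself, singled out with its values known, was at 8.87 and 9.24 FPKM in *Dhps* cko and at 8.92 and 9.21 FPKM in *Dhps* flox, so that its genotypes overlapped. *Lck*, a kinase of T cells, had a log2 fold change of 0.73 (limma adjusted p = 0.64).

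Of 32 genes of the engulfment machinery, which reshapes actin around the dying cell and matures the phagosome, 2 had an unadjusted p under 0.05 and the median was 0.00. *Rhog*, a small GTPase that acts upstream of ELMO and DOCK proteins, was at 248 and 231 FPKM in *Dhps* cko and at 199.99 and 208 FPKM in *Dhps* flox (log2 fold change 0.23, limma adjusted p = 0.57). *Snx3*, a sorting nexin, had a log2 fold change of 0.14, and *Rac2*, the Rac GTPase of neutrophils and the most abundant gene of the list, one of 0.11 with overlapping genotypes.

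The list built around annexins and their receptors held 20 tested genes, namely 10 annexins, 3 formyl peptide receptors and 7 related genes such as S100 partners, neutrophil proteases and lipoxygenases, with a median of 0.14 on the log2 scale, 13 positive and 2 at an unadjusted p under 0.05. *S100a11*, a calcium-binding partner of annexin A1, was at 1786 and 1821 FPKM in *Dhps* cko and at 1513 and 1495 FPKM in *Dhps* flox. Unlike *Anxa1*, it was higher in both *Dhps* cko libraries, by a log2 fold change of 0.26 with an SE of 0.06 (limma adjusted p = 0.54). *Anxa6* had a log2 fold change of 0.22 (limma adjusted p = 0.63). *Fpr2*, which encodes a receptor of annexin A1 and was likewise singled out, was at 323 and 364 FPKM in *Dhps* cko and at 328 and 294 FPKM in *Dhps* flox, and the genotypes overlapped.

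The list built around nuclear receptors and transcription factors of uptake genes, with related genes such as *Abcg1*, *Mylip* and *Fkbp5*, held 17 tested genes. Of these, 2 had an unadjusted p under 0.05, both lower in *Dhps* cko. They were *Klf2*, an anti-inflammatory factor of myeloid cells, at 60.58 and 59.76 FPKM in *Dhps* cko and at 67.67 and 66.01 FPKM in *Dhps* flox, and *Tsc22d3*, a glucocorticoid-induced gene, with a log2 fold change of -0.19 (limma adjusted p = 0.71). *Klf2*, the most abundant gene of the list, had a log2 fold change of -0.15 (limma adjusted p = 0.66). No gene of the remaining lists had an unadjusted p under 0.05. They were 17 find-me and don't-eat-me signals (median 0.04), led by *Cd24a*, 12 genes of phosphatidylserine exposure (median -0.02), led by the flippase gene *Atp11b*, and 7 genes of the vitamin K cycle (median 0.05), which serves the carboxylation of GAS6 and protein S and was led by *Calu*.

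**Figure D4:**
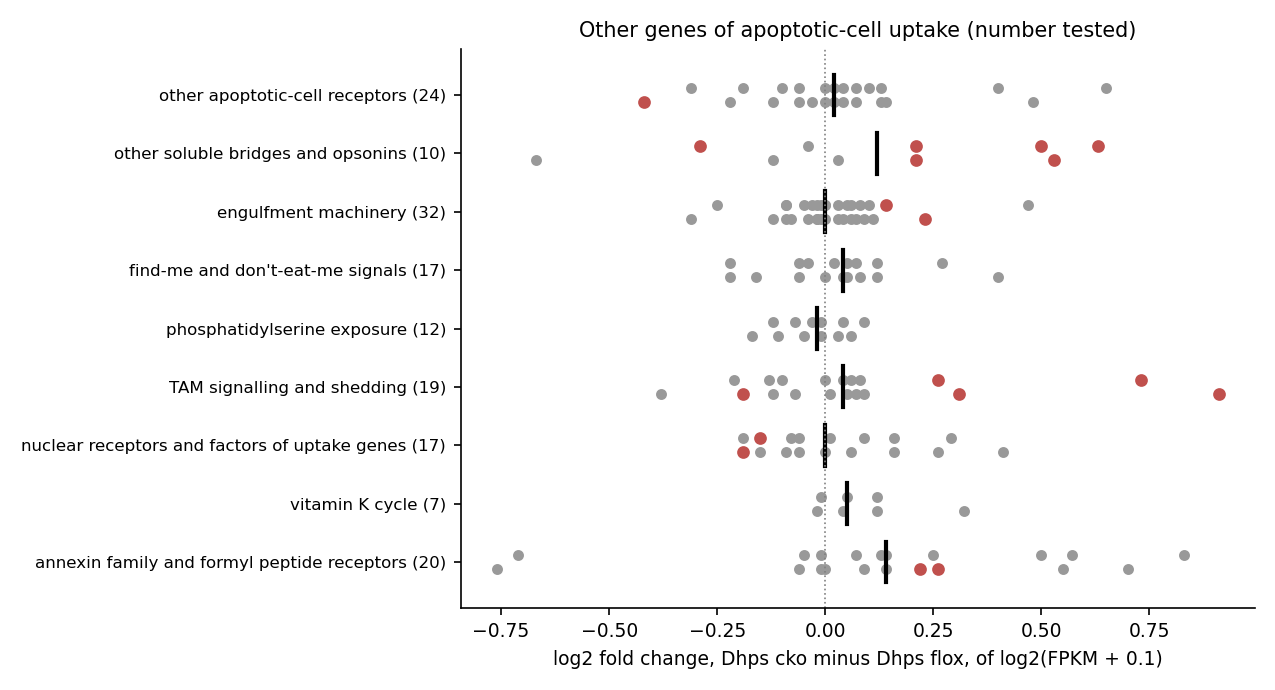
Differences between genotypes for the genes of the 9 lists (vertical axis, with the number tested), as log2 fold changes of log2(FPKM + 0.1) (horizontal axis), with a point for each gene, red where the unadjusted p from limma is under 0.05, and a black bar at the median of each list. The medians lie between -0.02 and 0.14, and the 18 red points, of which 6 are soluble bridges and opsonins, lie on both sides of 0.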

How the data were processed

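The values are from bulk RNA sequencing of 2 *Dhps* cko and 2 *Dhps* flox libraries of splenic PMN-MDSCs. The authors filtered reads with Cutadapt, aligned them with HISAT2 to mm10 (GRCm38) per the labels, and calculated FPKM with StringTie and ballgown. The deposited FPKM are scaled by transcript length and mapped fragments and rounded to 2 decimals, so a few abundant genes that take more fragments lower all other values. The annotation release and the use of strand are not given in the sources used here.

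Gene identifiers were matched to GENCODE M21 (28511 matched, 74 did not), and promoter windows came from RefSeq. Depth was estimated from steps between low FPKM. Only 38.8% to 42.3% of low values lay within 0.15 of a whole step, where evenly spread values give 30%, so reads were not recovered and no count test was run.

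The 17948 genes whose mean reached 0.1 FPKM were compared on log2(FPKM + 0.1), which understates fold changes of low genes, with limma 3.58.1 in R 4.3.3 (lmFit, eBayes with a mean-variance trend, no replicate block). Benjamini-Hochberg adjustment covered all genes, with a threshold of 0.05. With 2 libraries on each side the smallest p of an exact permutation test is 0.333, so none was used. The comparison was first tested on simulated data, where it missed most changes at the smaller sizes tried, so a p that misses the threshold does not show that the genotypes were alike. Other steps used Python 3.11.15, numpy 2.4.6, pandas 2.3.3 and matplotlib 3.10.9. Alternatives were 2 other pseudocounts, 2 other filters, 3 other scalings, no trend, a replicate block and leaving out each library.

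The 8 genes and all lists were chosen with earlier results of these data known. The text names the 8 genes, *Dhps*, up to 3 genes per pathway list by the smallest unadjusted p under 0.05, the most abundant gene of a list, and the 2 genes most like each of the 5 more abundant of the 8; others are named as chosen after their values were seen. Some genes that this rule would name are not reported here.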

Additional observations from a re-analysis of the deposited data

How the results depend on the processing

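None of the 8 genes and none of the genes of the pathway lists had an adjusted p under 0.05 in the alternatives that could be fitted for them, and the lowest adjusted p of any of the 7 tested was 0.54. There were 13 such alternatives for 5 of the 8 genes, 12 for *Pros1* and *Mfge8*, which like some pathway genes lie below a mean of 1 FPKM, and for *Tyro3* only the fit with no filter (adjusted p 0.80 from limma). The directions of *Mertk* (log2 fold change -0.22 to -0.12), *Axl* (0.13 to 0.18) and *Timd4* (0.18 to 0.65) did not change. The other tested genes changed sign only when a library was left out: *Gas6* was -0.05 without *Dhps* cko replicate 1 and -0.19 without *Dhps* flox replicate 2 (range of the fits without 1 library -0.19 to 0.60), *Pros1* was -0.04 without *Dhps* cko replicate 2 and without *Dhps* flox replicate 1 (-0.04 to 0.13), *Mfge8* was -0.07 without *Dhps* cko replicate 1 and -0.16 without *Dhps* flox replicate 2 (-0.16 to 0.27), and *Anxa1* was 0.11 without *Dhps* cko replicate 1 and 0.12 without *Dhps* flox replicate 1 (-0.13 to 0.12).

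Over all genes, 1 gene passed the adjusted threshold. The number was 0 with a pseudocount of 0.01, 0 with no filter, 4 with a mean of at least 1 FPKM, 2 with FPKM rescaled to a common sum, 2 with quantile normalization and 0 to 0 when each library was left out. With a replicate block it was 0, and 11 rather than 18 pathway genes had an unadjusted p under 0.05 (6.96%, beside 6.03% of all genes). The labels do not say what a replicate number stands for. Differences between replicates 1 and 2 correlated across 10629 genes at r = -0.0567 between the genotypes. This correlation cannot show whether libraries with the same number shared a litter or sort. The pathway count was also 11 without the trend (6.96%, beside 7.22% of all genes), 10 without *Dhps* cko replicate 1 (6.33% beside 4.6%), 6 without *Dhps* cko replicate 2 (3.8% beside 4.16%), 10 without *Dhps* flox replicate 1 (6.33% beside 7.38%) and 19 without *Dhps* flox replicate 2 (12% beside 8.96%). Summed ligands, at 111% of *Dhps* flox with all libraries, were at 142% without *Dhps* flox replicate 1 and 126% without *Dhps* cko replicate 2, but at 96.2% without *Dhps* cko replicate 1 and 91.6% without *Dhps* flox replicate 2, and summed receptors at 105% with FPKM rescaled to a common sum. The causes were not tested. With 2 libraries per genotype, the intervals of *Gas6*, *Pros1*, *Mfge8* and *Timd4* are wide, and *Tyro3* was at or near 0 in all 4 libraries.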
